A study of Mus musculus with 20 samples.

Results

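The genes described here are 32 genes of the tricarboxylic acid cycle and of the entry of pyruvate into it, given as a list of gene symbols: the mitochondrial pyruvate carrier, the pyruvate dehydrogenase complex with its kinases and phosphatases, the enzymes of the cycle, and the enzymes that exchange malate, aspartate and pyruvate with it. Of the 32 genes, 31 were named on the array and 29 passed the filter on low values and were tested, among 9275 genes tested in all. The pyruvate carrier subunit Mpc2 was not named here, and the kinase Pdk3 and the phosphatase Pdp2 stayed under the filter. The list was not chosen by measured values of its members, but it was drawn up with earlier results of these data known.

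The cycle oxidises acetyl groups in the mitochondrial matrix and passes the electrons to the respiratory chain, which supplies most of the ATP of a beating heart. Pyruvate enters the matrix through a carrier made of Mpc1 and Mpc2 and is turned into acetyl-CoA by pyruvate dehydrogenase. The Pdk kinases switch that complex off and the Pdp phosphatases switch it on, and heart muscle, which burns mainly fatty acids, is rich in the kinase Pdk4. Succinyl-CoA synthetase pairs the subunit Suclg1 either with Sucla2, to make ATP, or with Suclg2, to make GTP.

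The samples were cardiac ventricles of 20 mice, all males of the inbred strain C57BL/6J, with 1 microarray per mouse. The old group held 10 mice aged 25 to 28 months and the young group 10 mice aged 4 to 6 months. No allele or agent distinguished the groups, and the mice were kept under the same barrier housing. Values are deposited log2 signals per probe set, a group of short probes near the 3′ end of a transcript, and every difference below is a log2 difference, old minus young.

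The array medians lay between 3.07 and 3.20. The 3′ minus 5′ signal of control transcripts, a sign of RNA breakdown, was 0.40 ± 0.10 for old arrays and 0.39 ± 0.08 for young ones (SD, n = 10 each). Of 8 listed ventricular muscle markers, all were tested and 1 was lower (Hopx). Among those not called Irx4 differed most, by -0.58 (adjusted p = 0.0845, limma), with 6.01 to 7.05 in young and 4.86 to 6.87 in old arrays. Transcripts of atrial muscle were not spread evenly: Myl7, the atrial myosin light chain, was at 2.38 to 2.44 in the young arrays but above 10 in 7 old arrays (old 3, 4, 5, 6, 8, 9 and 10) and under 10 in the other 3 (old 1 at 2.36, old 2 at 8.27 and old 7 at 6.58). Of these 3, called low below, old 2 and old 7 were thus still above the young arrays. All 4 tested atrial markers of 8 listed were higher in old. The summed linear level of all 8, tested or not, was 1059 to 5394 in young and 1712 to 99494 in old arrays. Macrophage markers were higher for 7 of 8, fibroblast markers for 4 of 8, endothelial for 2 of 8, smooth muscle for 1 of 5, and red cell markers for both of the tested 2. Of the 8 skeletal muscle markers none of the tested 3 was called, and Myh4, Myh2, Tnnt3 and Actn3 were under 4 on every array. In whole tissue, fewer cells of a type and less RNA per cell cannot be told apart.

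Part of the genes of the cycle and of pyruvate entry were lower in the old hearts. In limma's moderated test over all genes, 9 of the 29 tested members were lower in old at an adjusted p under 0.05, where 7.49% of all tested genes were lower. They were Pdhb, Dlat, Pdk4, Pdpr, Sucla2, Suclg2, Suclg1, Fh1 and Me3. One member, Me2, was higher, where 11.2% of all genes were higher. Of the 29 estimates 26 were below 0 (89.7%), against 48.7% of all tested genes, and the median was -0.20, against 0.01 over all genes. At an unadjusted p under 0.05, 16 members were lower and 1 was higher, where 14.1% of all tested genes were lower and 17.6% higher. The sizes were modest: apart from Pdk4, the 8 other lower members fell by 18.2% to 30.3% on the linear scale. The old arrays with high atrial transcripts matter for these calls: without them 1 member was called lower (Me3) and none higher, as described further down.

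**Figure D1:**
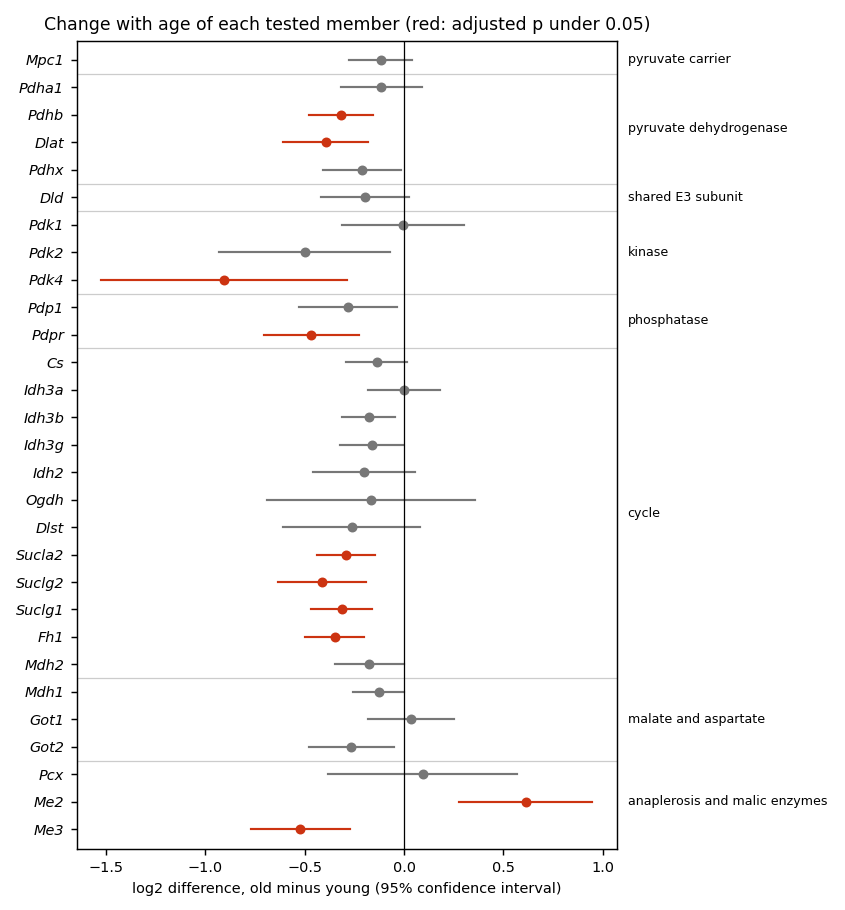
Log2 difference between old and young hearts (x axis, points) with its 95% confidence interval (lines) for each of the 29 tested members (y axis), grouped by role, with red for an adjusted p under 0.05. Of the points, 26 lie left of 0, Pdk4 lies farthest left at -0.91 with the widest interval, and Me2 is the red point to the right at 0.61.

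Pyruvate import and the 4 pyruvate dehydrogenase genes came first in the pathway. Mpc1, the measured carrier subunit, averaged 13.58 ± 0.09 in the young and 13.46 ± 0.18 in the old arrays (SD, n = 10 each), a difference of -0.12 (adjusted p = 0.309, limma). Pdha1, the α subunit of the first enzyme and the target of the kinases, differed by -0.11 (adjusted p = 0.451), and Pdhx, which anchors the shared lipoamide dehydrogenase in the complex, by -0.21 (adjusted p = 0.124). Dld, that dehydrogenase, which the 2-oxoglutarate dehydrogenase complex uses too, differed by -0.20 (adjusted p = 0.217).

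Pdhb, the β subunit of the first enzyme, read 13.19, 13.47 and 13.55 in young (lowest, median, highest) and 12.91, 13.09 and 13.46 in old. All 10 old arrays lay below the young median and 6 lay below every young array. Its difference was -0.32 ± 0.08 (SE; adjusted p = 0.00628, limma), or 19.8% lower on the linear scale. Dlat, the acetyl-transferring second enzyme, read 10.97, 11.41 and 11.63 in young and 10.57, 10.99 and 11.40 in old. Again all 10 old arrays lay below the young median, although 6 stayed within the young range, and the difference was -0.40 ± 0.10 (SE; adjusted p = 0.00915, limma). Of the 4 pyruvate dehydrogenase genes 2 were thus called, and the test of the difference between partners, given further down, separated Pdha1 from Pdhb and Dlat from Pdhx only with the sets of arrays as a block.

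The kinases and phosphatases that set the activity of the complex did not share 1 pattern. Pdk4, the kinase that responds to fatty acids and fasting, read 11.10, 11.98 and 13.28 in young and 9.59, 11.08 and 12.74 in old. The groups overlapped widely: 6 old arrays lay below every young array, but 2 stood above the young median, old 6 the higher at 12.74. The difference, -0.91 ± 0.30 (SE; adjusted p = 0.0368, limma), was the largest among the members, a 46.6% lower linear signal. Its call was lost when any 1 of 8 arrays was left out (old 1, 3, 5 or 8, or young 13, 18, 19 or 20), with adjusted p up to 0.0684 and differences of -1.08 to -0.73 over all 20 omissions. Pdk2, a kinase found in most tissues, averaged 10.86 ± 0.51 in the young and 10.36 ± 0.49 in the old arrays (SD, n = 10 each), a difference of -0.50 (adjusted p = 0.0971). Pdk1, a kinase induced by low oxygen, did not separate the groups, with 9.78 ± 0.41 against 9.78 ± 0.26 and a difference of -0.01 (95% interval -0.31 to 0.30).

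Pdk3 could not be tested, because most arrays were under 4, near the floor of the method. It read 2.43 to 2.98 in young and 2.91 to 5.23 in old, and 5 old arrays (old 5, 6, 8, 9 and 10) were above 4, all of them among the 7 with high Myl7. The 3 old arrays with low Myl7 read 2.93, 2.93 and 2.91, inside the young range. The part of atrial transcripts in the Pdk3 values was not tested further.

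Pdpr, the regulatory subunit that lowers the activity of the pyruvate dehydrogenase phosphatase, read 8.77, 9.14 and 9.49 in young and 8.34, 8.58 and 9.22 in old. All but 2 old arrays lay below every young array, and the difference was -0.47 ± 0.12 (SE; adjusted p = 0.00665, limma). Pdp1, the calcium-stimulated catalytic subunit, differed by -0.28 (adjusted p = 0.101), with 8.11 ± 0.22 in the young and 7.82 ± 0.30 in the old arrays (SD, n = 10 each). Pdp2, the other catalytic subunit, was under 4 on every array.

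**Figure D2:**
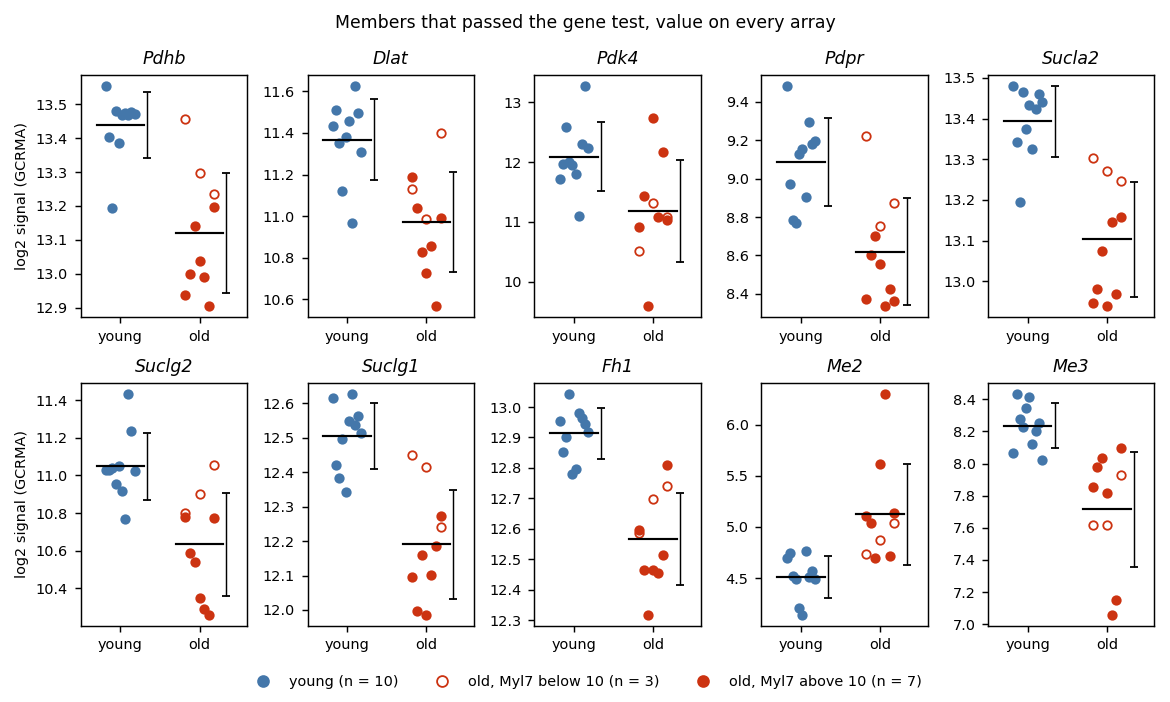
Deposited log2 signal (y axis) of the 10 members past the threshold on each of the 20 arrays, with young arrays in blue, old arrays with Myl7 above 10 as filled red points and the 3 others as open red points; bars mark group means and error bars 1 SD (n = 10 each). For Sucla2 the 3 open points, at 13.25 to 13.30, lie above the lowest young array (young 13, at 13.20) and below the 9 other young arrays. For Me3 all old points but 2 lie below the young arrays.

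The 12 genes of the cycle proper had a median difference of -0.19, with 4 lower and none higher. The 4 were the 3 subunits of succinyl-CoA synthetase and fumarase, on either side of succinate dehydrogenase. At an unadjusted p under 0.05, 7 of the 12 were lower and none higher (limma). Of all tested genes, 7.49% were called lower and 11.2% higher, and 14.1% and 17.6% at the unadjusted threshold. Sucla2, the ATP-forming β subunit, read 13.20, 13.43 and 13.48 in young and 12.94, 13.11 and 13.30 in old. It was lower in old by 18.2% on the linear scale, with 7 old arrays below every young one (difference -0.29 ± 0.07, SE; adjusted p = 0.00596, limma). Suclg2, the GTP-forming β subunit, read 10.77, 11.03 and 11.43 in young and 10.26, 10.68 and 11.05 in old. With 5 old arrays below every young one it overlapped more, at a difference of -0.41 ± 0.11 (SE; adjusted p = 0.00875, limma). Suclg1, the α subunit that both forms share, read 12.34, 12.52 and 12.63 in young and 11.99, 12.17 and 12.45 in old. Here 8 old arrays lay below every young one, and the difference was -0.31 ± 0.07 (SE; adjusted p = 0.00498, limma).

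Fh1, fumarase, which adds water to fumarate to give malate, had the smallest p among the members. It read 12.78, 12.93 and 13.04 in young and 12.32, 12.55 and 12.81 in old, and 9 of 10 old arrays lay below every young array. The exception was old 10, at 12.81. The difference was -0.35 ± 0.07 (SE; 95% interval -0.50 to -0.20; adjusted p = 0.00177, limma), or 21.4% lower on the linear scale.

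The other 8 cycle genes did not pass. Idh3b, a regulatory subunit of the NAD-linked isocitrate dehydrogenase, came nearest: it averaged 12.87 ± 0.09 in the young and 12.70 ± 0.10 in the old arrays (SD, n = 10 each), with 8 old arrays below every young array (difference -0.18; adjusted p = 0.0564). Its partner Idh3g, the other regulatory subunit, differed by -0.16 (adjusted p = 0.147), and the catalytic subunit Idh3a by 0.00 (95% interval -0.18 to 0.18). Idh2, the NADP-linked mitochondrial enzyme, differed by -0.20 (adjusted p = 0.279) and Cs, citrate synthase, which makes citrate from acetyl-CoA and oxaloacetate, by -0.14 (adjusted p = 0.206).

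Ogdh and Dlst, the first 2 enzymes of the 2-oxoglutarate dehydrogenase complex, were spread too widely within the groups for this comparison. Ogdh averaged 12.20 ± 0.63 in the young and 12.03 ± 0.60 in the old arrays (SD, n = 10 each; adjusted p = 0.695) and Dlst at 11.07 ± 0.42 and 10.80 ± 0.36 (adjusted p = 0.285). Mdh2, the mitochondrial malate dehydrogenase that closes the cycle, differed by -0.17 (adjusted p = 0.152), with each of the 10 old values under the young median.

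Among the enzymes that carry malate and aspartate between matrix and cytosol, none was called, and at an unadjusted p under 0.05 1 was lower, Got2. Mdh1, the cytosolic malate dehydrogenase, averaged 15.02 ± 0.06 in the young and 14.90 ± 0.10 in the old arrays (SD, n = 10 each), with 7 old arrays below every young one (difference -0.13; adjusted p = 0.159). Got2, the mitochondrial aspartate aminotransferase, differed by -0.27 (adjusted p = 0.0745) with all 10 old arrays below the young median. Got1, the cytosolic form, differed by 0.04 (adjusted p = 0.853), and 2 old arrays lay below its young median.

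The mitochondrial malic enzymes, which turn malate into pyruvate, went opposite ways. Me3, the NADP-linked enzyme, read 8.02, 8.24 and 8.43 in young and 7.06, 7.83 and 8.10 in old. All but 2 old arrays lay below every young array, at a difference of -0.52 ± 0.12 (SE; adjusted p = 0.00446, limma), or 30.3% lower on the linear scale. Me2, which prefers NAD, read 4.14, 4.52 and 4.76 in young and 4.70, 5.04 and 6.30 in old. Its young values lay just above the filter value of 4, so the difference of 0.61 ± 0.16 (SE; adjusted p = 0.0103, limma) is one of a dim transcript. All 10 old arrays lay above the young median and 7 above every young array.

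The highest Me2 value, 6.30, was that of old 8, an array that also carried fat transcripts: Adipoq, adiponectin, read 12.02 there, 9.15 or less in the other old arrays and 2.10 to 2.37 in young. Of 8 adipocyte markers listed, 6 were named and 2 tested, and 1 of the tested (Car3) was higher. The summed linear level of the 6 named was 18190 to 21389 in young and 19255 to 64174 in old. Without old 8, Me2 differed by 0.48, the smallest value among the 20 omissions, and was still called. Pcx, pyruvate carboxylase, which makes oxaloacetate from pyruvate, read 7.60 in old 8 and 6.08 or less in the other old arrays. Its difference was 0.09 (adjusted p = 0.822) with old 8 and -0.10 without it. The part of fat tissue in these values was not tested.

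For sequence context, the 250 bases before the start of 4 of the called genes are printed, from RefSeq on GRCm38.p6, read 5′ to 3′ on the strand of the gene: Fh1 with the smallest p, Pdhb of the gateway complex, Pdk4 with the largest change and Me3, the member still called without the 7 arrays. Capitals mark matches to the short motifs searched in this stretch.
Fh1: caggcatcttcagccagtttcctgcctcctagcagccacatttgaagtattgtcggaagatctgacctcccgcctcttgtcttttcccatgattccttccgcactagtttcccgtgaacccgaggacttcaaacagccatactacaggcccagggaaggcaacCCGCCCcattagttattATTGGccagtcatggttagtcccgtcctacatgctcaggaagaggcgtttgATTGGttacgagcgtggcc
Pdhb: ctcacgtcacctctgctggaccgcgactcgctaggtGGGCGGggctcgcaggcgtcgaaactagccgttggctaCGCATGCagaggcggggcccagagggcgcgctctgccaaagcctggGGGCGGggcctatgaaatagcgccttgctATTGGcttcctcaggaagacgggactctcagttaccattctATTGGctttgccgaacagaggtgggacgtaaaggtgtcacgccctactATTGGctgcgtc
Pdk4: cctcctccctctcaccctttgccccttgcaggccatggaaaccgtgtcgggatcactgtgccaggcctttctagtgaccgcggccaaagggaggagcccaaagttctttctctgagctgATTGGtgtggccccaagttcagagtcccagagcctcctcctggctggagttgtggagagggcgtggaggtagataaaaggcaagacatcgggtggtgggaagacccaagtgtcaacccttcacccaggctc
Me3: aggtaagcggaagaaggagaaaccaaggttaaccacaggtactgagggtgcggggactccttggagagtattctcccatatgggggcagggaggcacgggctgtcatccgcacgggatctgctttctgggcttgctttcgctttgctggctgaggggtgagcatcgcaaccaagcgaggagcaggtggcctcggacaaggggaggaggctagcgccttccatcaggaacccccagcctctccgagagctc
They lie at chr1:175625636-175625885 (minus strand), chr14:8172993-8173242 (minus), chr6:5496279-5496528 (minus) and chr7:89632568-89632817 (plus).

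Among the 32 genes, 29 had at least 1 window of 300 bases, 250 before and 50 after the start. The motifs were searched on both strands of the whole window, and each share of genes in parentheses is over all genes with a window. GGGCGG, the Sp1 box, was found for 19 of the 29 members (38.2% of genes) and CCAAT for 18 (41.1%). CCGGAAG, bound by GABP, was found for 4 (9.93%), ATGGCGG, a YY1 core, for 4 (4.69%), GCATGCG, an NRF1 core, for 2 (4.01%), and AAGGTCA, a site of the ERR receptors, for 2 (5.38%). GTAAACA, a FOXO site, was found for none (4.05%). Matches of GCATGCG on opposite strands overlap, since it reads nearly the same both ways. Of the 9 members lower in old, 6 held GGGCGG and 4 held CCAAT. The printed Fh1 and Pdhb stretches hold both, on the printed strand or as the reverse complements CCGCCC and ATTGG, and Pdhb also holds GCATGCG on the other strand. Pdk4 holds CCAAT alone and Me3 none of the motifs. A match describes letters in the window and no binding.

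The calls were then set against the atrial transcripts, which were high only in old arrays. With an atrial index (the mean of the linear Myl7 and Sln signals, each relative to its highest array) as a covariate, 1 member was called lower, Pdk4 at -1.36 (adjusted p = 0.0401, limma), and none higher. Over all genes the same fit called 0.927% lower and 2.81% higher. At an unadjusted p under 0.05 it had 7 members lower and 1 higher (7.59% and 11.1% of all genes). Of its 29 member estimates 24 were below 0 (82.8%), against 47.3% of all genes, with a median of -0.15, against 0.02. Without the 7 old arrays with high Myl7, which leaves 3 old and 10 young arrays, 1 member was called lower, Me3 at -0.51 (adjusted p = 0.0265, limma), and none higher, against 0.679% and 2.25% of all genes. At an unadjusted p under 0.05 that fit had 4 members lower and 1 higher (6.42% and 9.96% of all genes). There 21 of 29 member estimates were below 0 (72.4%), against 47.2% of all genes, with a median of -0.11, against 0.02.

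The 10 called members kept their sign in both fits, which is a description, since the calls used the same arrays. The sizes depended on the gene. Me3 hardly moved (-0.52 over all arrays, -0.51 with the index, adjusted p = 0.0816, and -0.51 without the 7 arrays), and its 3 old arrays with low Myl7 read 7.62, 7.62 and 7.93, below every young array. Fh1 went from -0.35 to -0.31 with the index (adjusted p = 0.0716) and to -0.24 when the arrays were omitted (adjusted p = 0.213). Pdhb shrank more, from -0.32 to -0.21 (adjusted p = 0.253) and -0.11 (adjusted p = 0.626). Sucla2 went from -0.29 to -0.20 and -0.12, Suclg1 from -0.31 to -0.21 and -0.14, and Suclg2 from -0.41 to -0.20 and -0.13. Dlat went from -0.40 to -0.21 and -0.19, and Pdpr from -0.47 to -0.26 and -0.14.

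Pdk4 and Pdk2 moved the other way. Pdk4 differed by -1.36 once the index was included and by -1.12 when the arrays were omitted (adjusted p = 0.0817), and Pdk2 went from -0.50 to -0.70 and -0.86, neither called. For Pdk4, the 3 old arrays with low Myl7 read 10.51, 11.32 and 11.09, and the 7 with high Myl7 ran from 9.59 to 12.74. Me2 went from 0.61 to 0.44 with the index (adjusted p = 0.265) and to 0.37 when the arrays were omitted (adjusted p = 0.187). Fewer genes of any kind passed in these fits, as the shares of all genes show, and the part of the atrial transcripts in the calls was not tested beyond them.

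**Figure D3:**
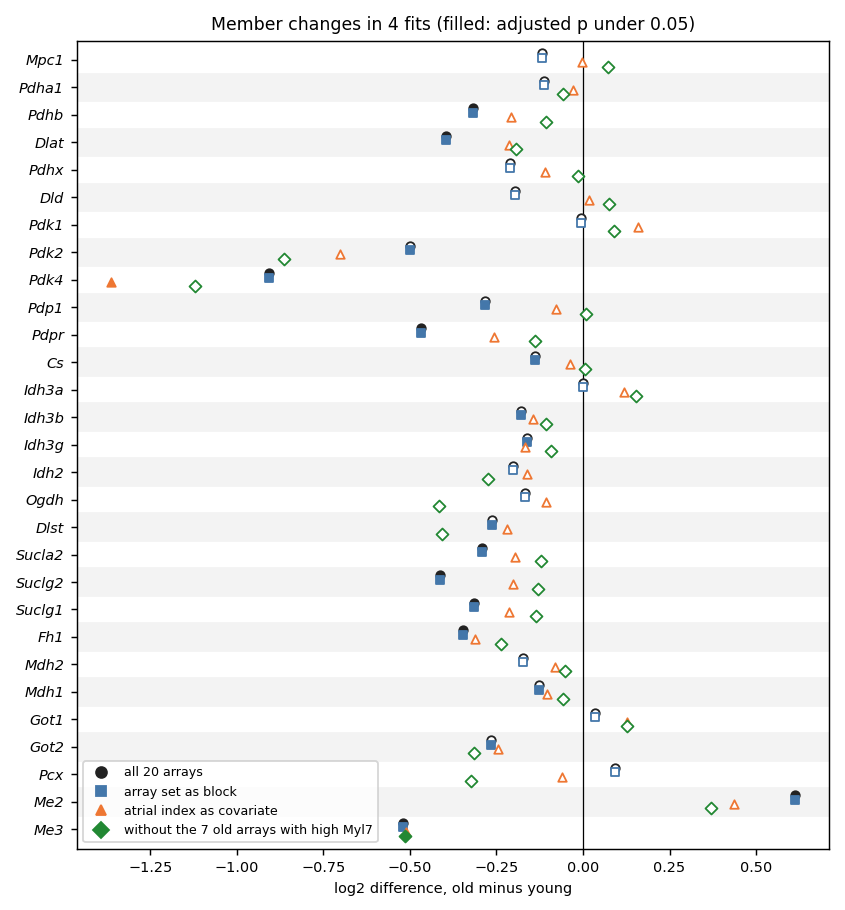
Log2 difference between old and young (x axis) for each tested member (y axis) in 4 fits: all 20 arrays, with the set of arrays as a block, with the atrial index as covariate, and without the 7 old arrays with high Myl7. Filled symbols have an adjusted p under 0.05; for Pdhb the points run from -0.32 to -0.11, whereas for Me3 they run from -0.52 to -0.51.

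The arrays also fell into 5 sets of 4, found by clustering what was left of the values after the group means were taken out, with 2 old and 2 young arrays in each; the labels do not say what the sets share. Within the sets, 20 of the 29 members were lower in old in all 5, and Me2 was higher in all 5; of all tested genes 18.6% were lower in all 5. The values of set 1, whose old arrays were old 1 and old 2, are given as a description, since the calls used the same arrays: Fh1 was at -0.29, Me3 at -0.43, Dlat at -0.31, Pdpr at -0.35, Pdk4 at -1.06, Suclg2 at -0.18, Sucla2 at -0.17, Pdhb at -0.14, Suclg1 at -0.13 and Me2 at 0.21. The Pdk4 difference varied most among the lower members, from -1.71 in set 4 to 0.05 in set 5.

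**Figure D4:**
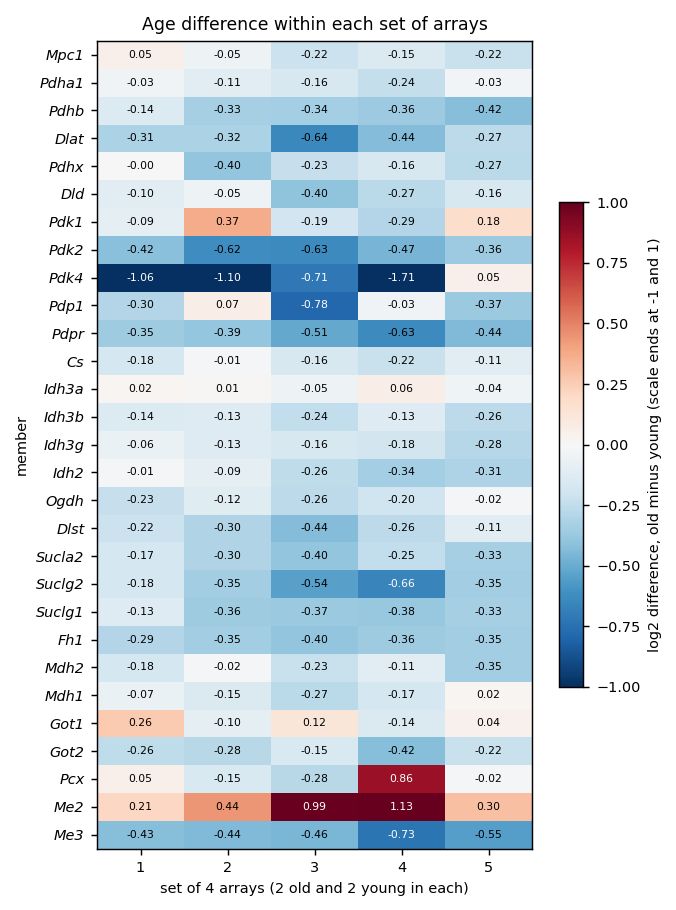
Log2 difference between the 2 old and 2 young arrays of each of the 5 sets (x axis) for each tested member (y axis), with blue for lower and red for higher in old and colour limits at -1 and 1. Fh1 is blue throughout, from -0.40 to -0.29, Pdk4 goes from -1.71 in set 4 to 0.05 in set 5, and Me2 is red throughout, from 0.21 to 1.13.

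How much the sets mattered differed between members. For Ogdh, 95% of the variance within the age groups lay between sets: the young means ran from 11.39 in set 5 and 11.57 in set 1 to 12.72 in set 2. Dlst, its partner in the complex, had 90.1%, Pdk2 86.1% and Pdha1 84.6%, whereas Pdk4 had 6.28%. The median over the members was 54.2%, close to the 54.1% of all tested genes. With the set as a block in the fit, 17 members were lower and 1 higher, where 16.7% of all genes were lower and 19.4% higher. The 8 added were Cs, Dlst, Got2, Idh3b, Idh3g, Mdh1, Pdk2 and Pdp1, with Pdk2 at an adjusted p of 0.000607 and Dlst at 0.00623. The sets were found on the values then tested, so these p-values are too small. With the atrial index and the block together, 2 members were called lower, Fh1 and Pdk4, and none higher, against 1.89% and 4.36% of all genes.

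Enzyme partners were compared within each array for 14 of 17 listed pairs in which both passed the filter, with two-sided permutation tests over arrays and adjustment over the 14. The difference in change was called for 2 pairs. Got1 changed by 0.30 more than Got2 (95% interval 0.13 to 0.48; permutation p = 0.00236, adjusted p = 0.0165), and the within-array difference was above the young median in 9 of 10 old arrays. This pair rested on the probe set used: with the mean of the probe sets of each gene the difference was 0.15 (adjusted p = 0.501). Without the 7 arrays it was 0.44 (permutation adjusted p = 0.0490), and with the index its adjusted p from permuted residuals was 0.0501. Me2 changed by 1.13 more than Me3 (95% interval 0.62 to 1.65, permutation p = 1e-05, adjusted p = 0.00014), in the same direction in 10 of 10 old arrays. That p is the smallest these resamples can give. Both genes were already called in opposite directions on these arrays, so this difference is no separate result. Me2 is dim, and old 8 stood out at -0.76, with the other old arrays at -2.20 or less. Over the 20 omissions of 1 array the difference ran from 0.93 to 1.22. Without the 7 arrays the Me2 and Me3 difference was 0.88 (permutation adjusted p = 0.0490), and with the index it was 0.95 (permuted residuals, adjusted p = 0.0501). Only 286 arrangements of the arrays exist without the 7, which limits how small the adjusted p of either pair could be there.

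**Figure D5:**
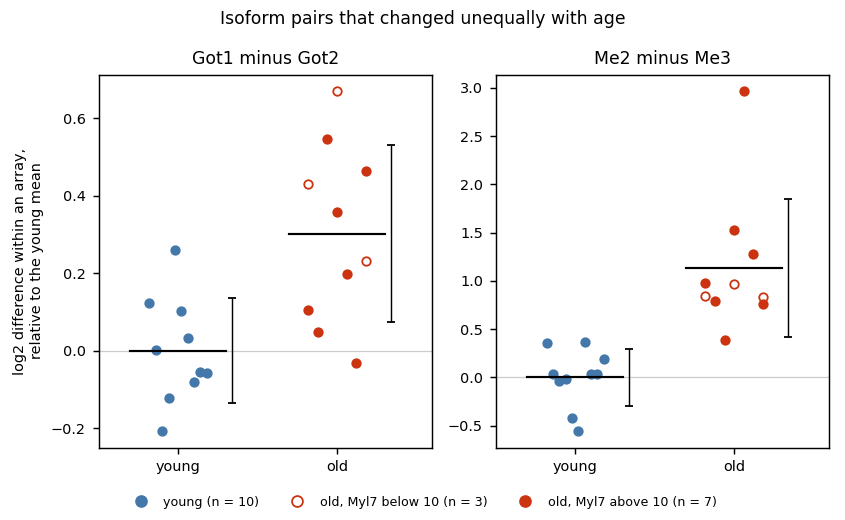
Within-array log2 difference of Got1 minus Got2 (left) and Me2 minus Me3 (right) on each array, drawn relative to the young mean (y axis), with bars for group means and error bars for 1 SD (n = 10 each); open red points are the 3 old arrays with Myl7 under 10. The old means lie 0.30 and 1.13 above the young ones, and every old array lies above the young median for Me2 minus Me3.

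For the other 12 pairs the test without a block did not separate the partners, and the intervals show how large an unequal change could have been. With arrays permuted within the 5 sets, 6 of these 12 were called: Pdha1 and Pdhb (exact permutation adjusted p = 0.0018), Idh3a and Idh3b (0.0024), Pdk1 and Pdk2 (0.0122), Idh3a and Idh3g (0.0186), Dlat and Pdhx (0.0248) and Idh2 and Idh3a (0.0248). As for the members, the sets were found on the same values, so these p-values are too small. Suclg1 and Sucla2 differed by -0.02 (95% interval -0.10 to 0.06), the tightest pair, and Sucla2 and Suclg2 by 0.12 (-0.06 to 0.31). Pdha1 changed by 0.20 more than Pdhb (-0.02 to 0.43; permutation adjusted p = 0.232) and Dlat by -0.18 relative to Pdhx (-0.39 to 0.03). Idh3a and Idh3b differed by 0.18 (0.00 to 0.35; permutation p = 0.0435, adjusted p = 0.203). Pdk4 against Pdk2 gave -0.41 with an interval of -1.19 to 0.37, so the kinases were too variable for an unequal change of moderate size to be detectable.

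Other probe sets of the same genes mostly ran the same way. The 29 tested members had 54 passing probe sets, and 16 members had more than 1. They were fitted separately among 15304 passing probe sets, an alternative added after the values were seen. In that fit 16 member probe sets were lower and 1 was higher. The shares called over all 15304 were not taken, so these counts are a description only. Of the additional probe sets, 3 had the sign opposite to the probe set used (1 each of Idh3b, Dlst and Got2). All 3 of Dlat, both of Pdhb and both of Suclg2 were lower. For 3 genes with no gene-level call a second probe set was lower: Ogdh at -0.97 (adjusted p = 0.00485, limma), from a mean of 5.99 in young to 5.02 in old, Idh3b at -0.45 (adjusted p = 0.0187) and Cs at -0.22 (adjusted p = 0.0476). For Pdpr the other 2, at -0.22 and -0.54, had standard errors of 0.38 and 0.46 and were not called. For Idh3a, at 0.00, the other 2 read -0.22 and -0.28, neither called.

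Of 39 other genes of pyruvate, lactate, malate and glutamate use and lipoate synthesis, 36 were named and 33 tested. Of the 33, 9 were lower and 2 were higher, where 7.49% of all tested genes were lower and 11.2% higher. The median difference was -0.26, against 0.01 over all genes. The 6 with the smallest adjusted p began with Slc16a7, a monocarboxylate carrier, at 1.16. Abhd11, a mitochondrial hydrolase, at -0.62, and Ldhd, the D-lactate dehydrogenase, at -0.66, came next. Then came Gpt, an alanine aminotransferase, at -0.61, and Slc25a13, an aspartate-glutamate carrier, at -0.73. Slc25a11, the 2-oxoglutarate carrier that works with the malate enzymes above, was last at -0.37. Slc16a7 is dim: its young arrays ran from 3.39 to 4.96, across the filter value of 4, and its old ones from 4.94 to 6.04. With the atrial index Slc16a7 (adjusted p = 0.0112, limma) and Ldhd (0.0360) kept their calls. Abhd11 (0.0682), Slc25a11 (0.102), Gpt (0.139) and Slc25a13 (0.224) lost theirs. Without the 7 old arrays with high Myl7, Slc16a7 alone of the 6 was called (adjusted p = 0.0360, limma). The 4 subunits of succinate dehydrogenase were named here after their values were seen, because they stand between the called steps. They differed by -0.25 (Sdha, called, adjusted p = 0.0466), -0.20 (Sdhb, 0.0691), -0.15 (Sdhc, 0.208) and -0.25 (Sdhd, 0.0669). None of them was called with the index or without the 7 arrays. In those fits Sdha differed by -0.14 and -0.14, and Sdhb by -0.07 and 0.02. Of 20 listed regulators 18 were named and 17 tested, none was higher, and the median was -0.09. Rxra, a partner of the PPAR receptors, was lower by 0.41 on the log2 scale and Sirt3, a mitochondrial deacetylase, by 0.42. Neither was called with the index (adjusted p = 0.176 and 0.227, limma) or without the 7 arrays (0.234 and 0.549). Over all 20 arrays, 3 regulators were lower at an unadjusted p under 0.05 and none higher (limma). Over all tested genes, 7.49% were called lower and 11.2% higher, and at the unadjusted threshold 14.1% and 17.6%.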

How the data were processed

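Age groups were read off the titles; the design text calls both age ranges young, read here as a slip. The deposited table holds log2 signals that the authors made with GCRMA, per the submitters' processing notes, and the log base follows from their range. GCRMA corrects background, normalizes and summarises probe sets, so dim transcripts share a floor and their differences are compressed. Its version is not given in the sources used here.

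Gene names came from the platform annotation, updated to GRCm38.p6 gene symbols. A probe set passed with log2 above 4 in at least 10 of the 20 arrays, and the brightest passing probe set stood for a gene, leaving 9275 genes. The age groups were compared with limma 3.58.1 (lmFit and eBayes, R 4.3.3), with Benjamini-Hochberg adjustment over all genes and a threshold of 0.05; unless another test is named, an adjusted p is from this fit. Partners in 1 enzyme or step were compared by permuting arrays (1e+05 resamples). With the index as covariate, the residuals of the model without the age group were permuted instead. The scripts were tested on simulated data.

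The members and the other lists were chosen with earlier results of these data known. Every member was named with its change, called members with their range, and up to 6 called genes of each other list by adjusted p. Alternatives were quantile normalization, median centring, other filters, the mean of probe sets, the atrial index, omission of the 7 arrays, the 5 sets as a block, a trended robust variance, array weights and omission of each array. The number of arrays limits the precision, and each array came from a separate mouse.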

Additional observations from a re-analysis of the deposited data

Results flagged for a closer look

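In 3 of 58 combinations of a tested member and an age group, 1 array lay far from the other 9; the measure is the gap to the nearest array as a share of the group's range (Dixon's test), and chance passes its limit in about 1 of 20 groups. Pdhb read 13.19 in young 13 and 13.39 or more in the other young arrays (share 0.532). Mdh2 read 13.83 in old 9 and 14.35 or more in the other old arrays (share 0.746). Pcx read 7.60 in old 8 and 6.08 or less in the other old arrays (share 0.619), and old 8 was also the array with the highest Adipoq (12.02), Car3 (14.56) and Me2 (6.30).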

How the results depend on the processing

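No paired analysis was possible because the groups share no replicate numbers that would match single mice; the sets of arrays entered as a block instead. The 9 lower calls became 1 with the atrial index, 1 without the 7 old arrays, 17 with the set of arrays as a block and 2 with index and block together; the 1 higher call became 2 without a filter (Pdk3 was added) and 0 with a filter at 6, with the index, without the 7 arrays and with index and block. Under quantile normalization, median centring, other filters, the trended robust variance and array weights the lower count stayed between 9 and 11, and leaving out each array in turn gave 8 to 10 lower and 1 higher. The 10 called members kept their sign in all of these, except that Me2 could not be fitted at a filter of 6. All these fits reused arrays that gave the calls, so a kept sign is a description. With the mean of probe sets Pdpr lost its call and Ogdh gained one.

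Changes of sign were seen among members and pairs that were not called. Without the 7 arrays, the differences were 0.073 for Mpc1, 0.076 for Dld, 0.089 for Pdk1, 0.0094 for Pdp1, 0.0058 for Cs, 0.15 for Idh3a and -0.32 for Pcx, and -0.0092 for Ogdh minus Dlst and -0.0068 for Mdh1 minus Mdh2. With the index they were 0.018 for Dld, 0.16 for Pdk1, 0.12 for Idh3a, -0.062 for Pcx and -0.025 for Mdh1 minus Mdh2. With index and block they were 0.021 for Idh3a, -0.12 for Pcx, 0.0058 for Suclg1 minus Sucla2 and -0.0017 for Mdh1 minus Mdh2. Median centring gave 0.028 for Pdk1 and 0.033 for Idh3a, quantile normalization -0.0012 for Pcx and 0.016 for Suclg1 minus Sucla2, and array weights -0.046 for Pcx. The mean of probe sets gave -0.044 for Idh3a minus Idh3b, -0.016 for Idh3a minus Idh3g and -0.37 for Ogdh minus Dlst, the last with a permutation adjusted p of 0.0332. Other probe sets read 0.25 for Idh3b, 0.041 for Dlst and 0.037 for Got2. Over the 20 omissions of 1 array, Pdk1 ran from -0.071 to 0.060, Idh3a from -0.028 to 0.042, Got1 from -0.0050 to 0.090, Pcx from -0.096 to 0.18 and Mdh1 minus Mdh2 from -0.017 to 0.067. The cause of these shifts was not tested. Signal limits Me2, Pdk3 and Pdp2, which lie close to the floor.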
